A study of Solanum lycopersicum with 24 samples.

Results

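2A11 (Solyc07g049140) is a tomato gene that the lists describe as a fruit-specific protein. Its peaks of m1A (N1-methyladenosine, adenosine with an added methyl group) were followed through fruit of 2 genotypes at 2 stages. The members are all peaks of the 12 mRNA lists whose transcript identifier begins with Solyc07g049140, and all peaks listed for a circular RNA with host 2A11. They came to 14 mRNA peaks and 6 circRNA peaks, 20 of the 4332 peaks in 36 lists. The gene was selected on its calls, which were known to recur over the 12 libraries, so its calls, positions and fold enrichments are a description and no test was made on them.

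The 12 immunoprecipitated (IP) libraries form 4 groups of 3 replicates. The AC MG group is the wild type Ailsa Craig at the mature green stage, approximately 39 days post-anthesis, and AC Br+6 is the same wild type, red ripe, 6 days after breaker. The Nr groups are homozygous for the ethylene receptor mutation Never-ripe in the Ailsa Craig background. Their titles call the stages G and O, taken here as the green stage and the Br+6 stage, at which the mutant fruit is described as orange. No treatment is named, the tissue is labelled only as tomato, and levels of marker mRNAs were not measured here. In bulk fruit, fewer cells with an mRNA and less of that mRNA per cell cannot be told apart. The lists hold no read totals, so depth is unknown. The mRNA lists ran from 108 to 854 peaks with a median of 234.5, and the circRNA lists from 30 to 52.

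The 2A11 mRNA is known as an abundant transcript of the developing and ripening tomato fruit, and the promoter of the gene has been used to drive transgenes in fruit. The encoded protein is small, secreted and rich in cysteine. NCBI's gene table gives the gene number 543980, the symbol 2A11 and the synonym TCMP-2, the name of a tomato metallocarboxypeptidase inhibitor of the cystine-knot type. In m1A the added methyl group sits on the base-pairing face of adenosine, where it blocks normal pairing. The position and enrichment of a peak come from antibody pull-down of RNA fragments, so a peak marks a stretch of the transcript and not a single methylated base.

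The 2A11 mRNA had a peak in 9 of the 12 libraries, a recurrence reached by 82 of 1945 called genes (4.22%). The count depended on peaks of low fold enrichment for their list. It fell to 3 when peaks under the median fold enrichment of their list were dropped. It fell to 1 when every list was cut by fold enrichment to 108 peaks, the length of the shortest. Such cuts remove peaks of many genes, and the share of genes that kept their calls is not given here. With a score of at least 50, a limit chosen after seeing the data, the count was 8. With all listed peaks, all 3 AC MG libraries held a peak. So did 2 of 3 libraries in each of AC Br+6, Nr G and Nr O. The libraries with no 2A11 peak were AC Br+6 replicate 2, Nr G replicate 2 and Nr O replicate 1. By genotype, 5 of 6 AC and 4 of 6 Nr libraries held a peak, and by stage 5 of 6 green and 4 of 6 late libraries. Genes called in at least 2 of 3 libraries in each of the 4 groups numbered 79 of 1945 (4.06%), and 2A11 was among them.

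The 14 peaks fell in a pair of separate stretches of the gene on chromosome 7, given on assembly SL3.00, which a scaffold name of the circRNA lists shows to be the one in use. The circRNA lists place the host on the minus strand, so higher coordinates lie nearer the 5′ end of the transcript. The 5′-side peak began at 59496121 in each of its 8 libraries and ended between 59496325 and 59496390. The 3′-side peak ended at 59495406 in each of its 6 libraries, and began at 59495183 in 5 of them and at 59495348 in AC MG replicate 1. A stretch of 714 bases without any listed 2A11 peak separated them, and the peaks together spanned 1208 bases. Exon, intron and UTR borders at these positions were not analysed here.

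**Figure D1:**
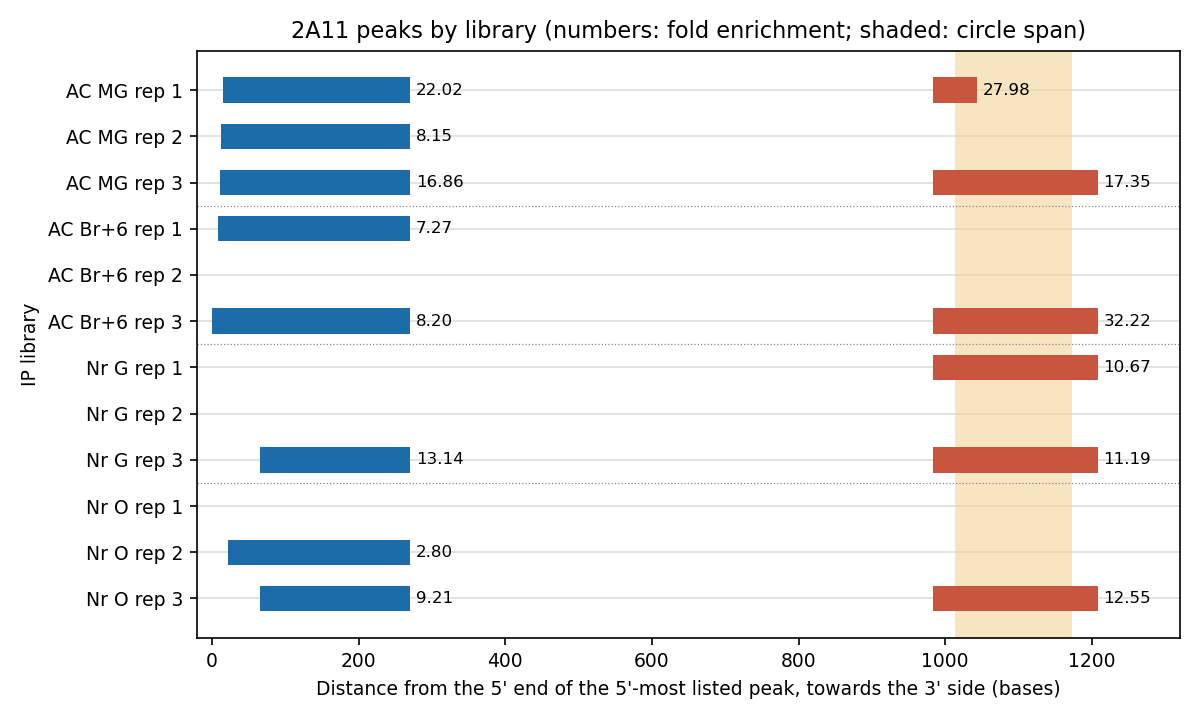
Position of every 2A11 mRNA peak in the 12 IP libraries. The x axis is the distance in bases from the 5′ end of the 5′-most listed peak towards the 3′ side, bars are peaks (blue for the 5′ side, red for the 3′ side), the number beside a bar is its fold enrichment, and the shaded band is the span of the 2A11 circle. The 8 bars on the 5′ side share their right edge and the 6 bars on the 3′ side share their left edge.

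The 5′-side peak was listed in 8 libraries and the 3′-side peak in 6, an order that turned to 2 and 3 when peaks under the median fold enrichment of their list were dropped. The 8 libraries with the 5′-side peak were 3 from AC MG, 2 from AC Br+6, 1 from Nr G and 2 from Nr O. The 6 libraries with the 3′-side peak were 2 from AC MG, 1 from AC Br+6, 2 from Nr G and 1 from Nr O. Both were present in 5 libraries, AC MG replicates 1 and 3, AC Br+6 replicate 3, Nr G replicate 3 and Nr O replicate 3. The 5′-side peak stood alone in AC MG replicate 2, AC Br+6 replicate 1 and Nr O replicate 2, and the 3′-side peak stood alone in Nr G replicate 1. Of 3493 calls of any gene in any library, 340 (9.73%) rested on 2 or more peaks. Of the 81 other genes called in at least 9 libraries, 72 never had more than 1 peak in a library, and 5 had more than 1 in 5 or more libraries. Those 5, chosen after their values were seen, were ASR1 (Solyc04g071610), Solyc08g007620, Solyc11g012320, Solyc11g027665 and Solyc11g027693.

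In the 5 libraries with both peaks, the numbers in the peak names were consecutive, so no other peak of the authors' caller lay between them in its numbering. The shared edges were a common property of the lists. Among 111 stretches of called genes with overlapping peaks in at least 6 libraries, 103 (92.8%) had 1 edge or both at the same base in every library. Both edges were the same in 54 of them. The 2A11 peaks belonged to the stretches with 1 common edge. Their lengths ran from 205 to 270 bases on the 5′ side and from 59 to 224 bases on the 3′ side.

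Fold enrichment is the authors' ratio for a peak, with 50 the highest value in the lists, and it is given for each library and not compared between libraries. On the 5′ side the fold enrichment in AC MG replicates 1, 2 and 3 was 22.02, 8.15 and 16.86. It was 7.27 in AC Br+6 replicate 1 and 8.20 in replicate 3, 13.14 in Nr G replicate 3, and 2.80 and 9.21 in Nr O replicates 2 and 3. On the 5′ side the listed values overlapped between the groups with more than 1 peak, and replicates of AC MG alone ran from 8.15 to 22.02. On the 3′ side it was 27.98 and 17.35 in AC MG replicates 1 and 3, and 32.22 in AC Br+6 replicate 3. The Nr libraries gave 10.67 in Nr G replicate 1, 11.19 in Nr G replicate 3 and 12.55 in Nr O replicate 3. On this side AC MG and Nr G, the groups with more than 1 peak, had 2 listed values each. These did not overlap, but 2 values a group are too few to show a difference, and none was tested. The share of all genes with such a gap is not given here. The AC MG replicate 1 value belongs to a peak of 59 bases, against 224 bases for the others on this side. AC Br+6 and Nr O had 1 library each on the 3′ side, so their spread is unknown.

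Within a library the pair can be set side by side. The 3′-side peak had the higher fold enrichment in 4 of the 5 libraries with both. The ratio of the 3′ side to the 5′ side was 1.27 in AC MG replicate 1, 1.03 in AC MG replicate 3, 3.93 in AC Br+6 replicate 3, 0.852 in Nr G replicate 3 and 1.36 in Nr O replicate 3. AC Br+6 replicate 3, which has the longest mRNA list, stood apart from the other 4 libraries in this ratio. With 1 such library in AC Br+6, whether red ripe fruit differs in the balance of the peaks could not be examined.

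The strongest 2A11 peak of a library was of middling rank in its own list. Rank was the percent of the peaks of that list with a lower fold enrichment, ties counted as 0.5, and its median over the 9 libraries was 43.5%. It was 83% in AC Br+6 replicate 3, 74.6% in AC MG replicate 1 and 58.3% in AC MG replicate 3, the 3 libraries in which the strongest 2A11 peak lay above the list median. It was 27.7% in both AC MG replicate 2 and AC Br+6 replicate 1, 43.1% and 43.5% in Nr G replicates 1 and 3, and 8.61% and 48.1% in Nr O replicates 2 and 3. The strongest peak thus lay below its list median in 6 of 9 libraries, among them all 4 calling Nr libraries. The mean fold enrichment of the strongest peak was 14.7 ± 9.7 (SD, n = 9 libraries). Those are calling libraries of all 4 groups, with the strongest peak on either side, so the SD is not a spread among replicates. In 5 of the 9 libraries the strongest peak was the higher of 2, and in the others it was the only one, which favours the rank in those 5. Because of this and because the lists differ in length, whether rank changed between groups cannot be judged from these values and was not tested.

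**Figure D2:**
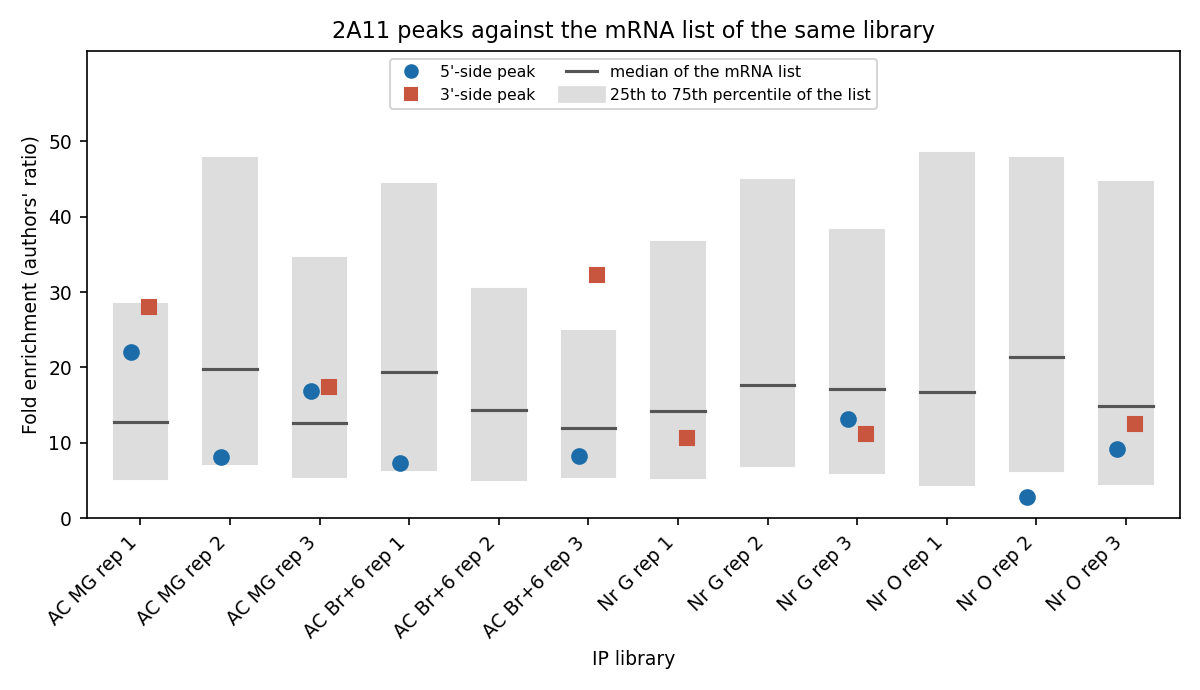
Fold enrichment (authors' ratio, y axis) of the 2A11 peaks in each IP library (x axis), with circles for the 5′-side peak and squares for the 3′-side peak. Grey boxes run from the 25th to the 75th percentile of that library's mRNA list and the dark line is its median. The 3 libraries with no point had no 2A11 peak, and the 3′-side peak of AC Br+6 replicate 3 at 32.22 lies above its box.

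The deposited score, equal to 10 times the negative log10 of the peak's p-value, is described next. Both peaks of AC MG replicate 1 and the 3′-side peak of AC Br+6 replicate 3 had a score of 3100, a value that 1133 of 3852 mRNA peaks (29.4%) share and that does not order them. The 5′-side peak of AC Br+6 replicate 3 scored 1885.77, although its fold enrichment was 8.20. In AC MG replicate 3 the scores were 826.25 on the 5′ side and 810.43 on the 3′ side.

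The remaining scores were lower. AC MG replicate 2 scored 139.9 and AC Br+6 replicate 1 scored 92.98. In Nr G the scores were 204.54 in replicate 1, and 663.66 and 249.19 in replicate 3. In Nr O replicate 3 they were 279.8 on the 5′ side and 224.44 on the 3′ side. The 5′-side peak of Nr O replicate 2 scored 13.45, which corresponds to a p-value of 0.045 for that peak from the authors' caller and is the lowest score among the 151 peaks of its list. Without that library's weak peak, 1 of 3 Nr O libraries would hold a 2A11 peak.

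Whether 2A11 gained or lost its peaks with stage or genotype was examined with the rule applied to every gene, a peak in 2 or 3 libraries on one side and in 0 of 3 on the other. From AC MG to AC Br+6 the calls of 2A11 went from 3 of 3 to 2 of 3, and from Nr G to Nr O they were 2 of 3 in both. At the green stage they were 3 of 3 in AC MG and 2 of 3 in Nr G, and late 2 of 3 in both genotypes. With all listed peaks, 2A11 met the rule in none of these comparisons. With peaks under the median fold enrichment of their list dropped, it met the rule for AC MG against Nr G, with calls in 2 of 3 and 0 of 3 libraries, and in none of the others. The share of all genes that met the rule under that cut is not given here, so this call has no background beside it. The shares that follow are for all listed peaks. Among all genes with a peak in either group, the rule was met by 3.2% (48 of 1500) for AC MG against AC Br+6 and by 7.72% (58 of 751) for Nr G against Nr O. It was met by 5.03% (66 of 1311) for AC MG against Nr G and by 4.38% (43 of 981) for AC Br+6 against Nr O. The comparisons share libraries and are not independent, and 3 libraries a group leave a smaller shift in calls undetectable.

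The length of a library's list moved with some of these calls. The 5 longest lists, AC Br+6 replicate 3 (854 peaks), AC MG replicate 1 (688), Nr G replicate 1 (377), Nr G replicate 3 (360) and AC MG replicate 3 (308), all held the 3′-side peak. The only other library with it was Nr O replicate 3, whose list has 129 peaks. A call of the gene as a whole followed length less closely. The lists without 2A11 had 236, 233 and 108 peaks, and 4 of the 9 lists with it were shorter than 236. The part of list length in the calls was not tested. Without the 2 longest lists, 2A11 was called in 7 of 10 libraries, the 5′-side peak in 6 and the 3′-side peak in 4.

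The circle with host 2A11 runs from 59495218 to 59495376 on the minus strand of chromosome 7, with a listed length of 159 bases. Circular RNAs arise when a downstream splice site joins an upstream one, and short-fragment libraries can attribute to them reads that the linear mRNA also produces. In 5 of the 6 libraries with the 3′-side mRNA peak the circle lay within it, 35 bases inside its lower edge and 30 bases inside its upper edge. In AC MG replicate 1 the shorter peak covered 29 of the 159 bases. Only 4 of the 38 circles in the lists had a shorter listed length, and the median was 3286.5 bases.

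The circle had a peak in 6 of 12 libraries, against 14 of 38 circles (36.8%) with a peak in at least 6. These were 2 libraries from AC MG, 1 from AC Br+6, 2 from Nr G and 1 from Nr O, the same libraries that held the 3′-side mRNA peak. Each of its 6 peaks had the name, fold enrichment and score of the 3′-side mRNA peak of the same library, so it is one signal entered in both lists. In 5 libraries the listed position was the whole circle, 59495218 to 59495376, where the mRNA list gives 59495183 to 59495406. In AC MG replicate 1 it was 59495348 to 59495376, 29 bases, where the mRNA list gives 59495348 to 59495406. The circRNA lists therefore cut the peak at the edges of the circle, and no circle peak was independent of the mRNA peak.

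Ranked in the circRNA list of its library, the same peak lay above the list median in AC MG replicate 1, at 56%, and in AC Br+6 replicate 3, at 68.3%. It lay below the median in AC MG replicate 3 at 44.6%, in Nr G replicates 1 and 3 at 26.2% and 27.9%, and in Nr O replicate 3 at 33.9%. No lncRNA peak overlapped the span of the 2A11 peaks (0 peaks in 12 lists).

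No other gene with an identifier from Solyc07g048900 to Solyc07g049400 had an mRNA peak in any library. The nearest called genes on the chromosome, chosen after their values were seen, were Solyc07g047800, described as a levodione reductase, 351 kb below, and ACO1 (Solyc07g049530) 462 kb above. ACO1, which encodes an oxidase that makes ethylene from its precursor, was called in 3 libraries and Solyc07g047800 in 2. Of the 3 protein-coding genes on either side of 2A11 in NCBI's table of the SLM_r2.1 assembly, which include the receptor-like kinase gene LYK1, 0 of 6 had a listed mRNA peak by gene number. A gene whose number the lists do not carry could not match. The share of all annotated genes with a listed peak is not given here, so the lack of peaks in these neighbours has no background beside it.

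Genes with a like pattern were sought by the Jaccard index, the number of libraries with a peak in both genes divided by the number with a peak in either. No gene had exactly the 9 libraries of 2A11. Solyc05g050340 (chromosome 5, 61305699 to 61305866) and Solyc12g036720 (chromosome 12, 47783835 to 47784045) were closest at 0.9, each with 1 library more, Nr G replicate 2 and AC Br+6 replicate 2. Solyc11g027770 (chromosome 11, 18865728 to 18866108) followed at 0.889 and lacked AC MG replicate 2. Solyc06g074570, Solyc01g009730, Solyc07g039300 and Solyc09g064170 stood at 0.818 and Solyc01g017050 at 0.778.

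None of these 8 genes has a description in the lists (0 of 8). Their fold enrichment differed. It ran from 48.43 to 49.95 over the peaks of Solyc12g036720 and from 6.7 to 14.49 over those of Solyc11g027770. A gene called in all 12 libraries reaches 0.75 with 2A11, as 61 genes do, so an index slightly above that says little beyond frequent calling. The median index over all other genes was 0.111, and 1471 genes were called in 1 library.

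**Figure D3:**
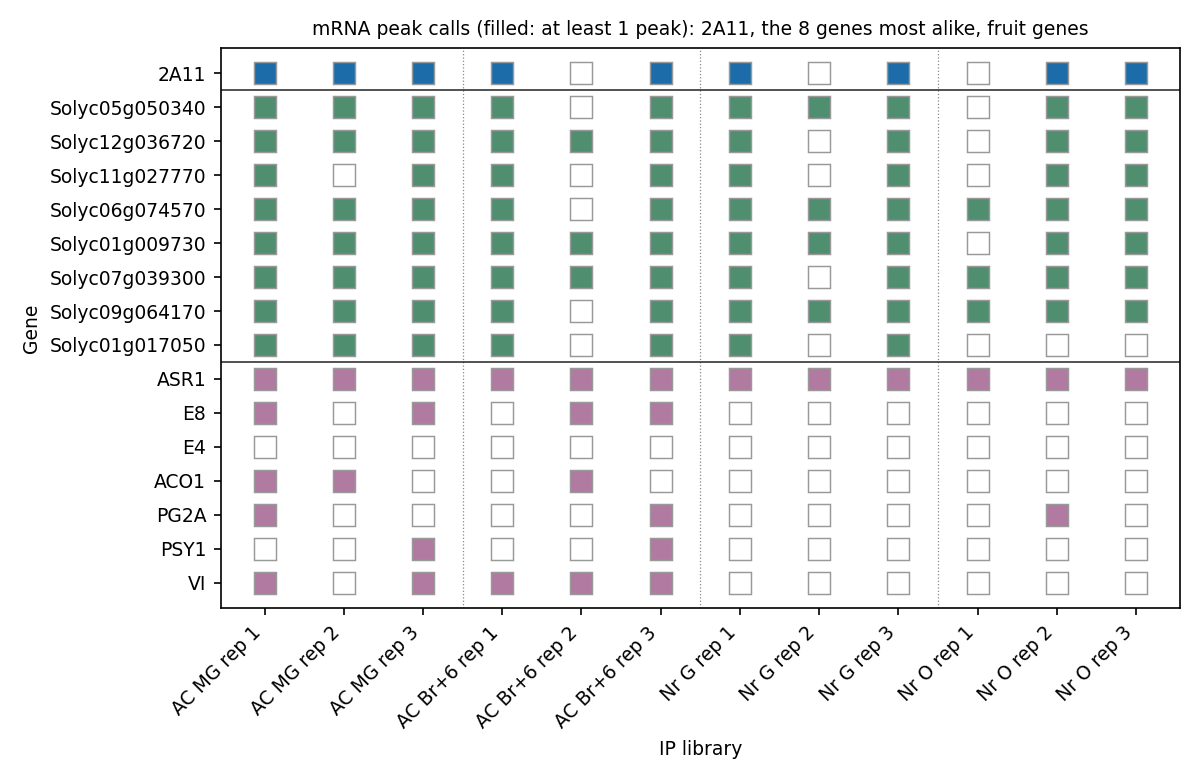
Peak calls by gene (y axis) and IP library (x axis), with a filled square for at least 1 mRNA peak. The first line is 2A11, the next 8 are the genes with the most similar calls by the Jaccard index, and the last 7 are named fruit and ripening genes. Of those 7, ASR1 has the highest index with 2A11, 0.75, which is the value for any gene filled in all 12 libraries.

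Among 7 fruit and ripening genes listed for comparison, 6 had a peak in some library. The 7 were chosen with earlier results of these data known. The share of all annotated genes with a peak is not given here, so this count has no background beside it. ASR1, a stress- and ripening-induced gene, was called in 12 libraries, and in the 9 shared with 2A11 its strongest peak had the higher fold enrichment in 7. The exceptions were AC MG replicate 1 and AC Br+6 replicate 3. VI (Solyc03g083910), the vacuolar invertase that splits sucrose, was called in 5 AC libraries and 0 Nr libraries. In the 4 it shared with 2A11, the 2A11 peak was the stronger in 3.

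The other genes of the list were called less often, with no test of the difference from 2A11. E8 (Solyc09g089580), a ripening gene, was called in 4 libraries, and PG2A (Solyc10g080210), the polygalacturonase of softening fruit, in 3. ACO1 was called in 3, PSY1 (Solyc03g031860), the phytoene synthase of fruit carotenoids, in 2, and the ripening gene E4 (Solyc03g111720) in 0. The Jaccard index with 2A11 was 0.4 for VI, 0.333 for PG2A, 0.3 for E8, 0.222 for PSY1 and 0.2 for ACO1. Of these 7 genes, 4 had peaks in AC fruit and in 0 of 6 Nr libraries, as did 1194 of all 1945 called genes (61.4%). PG2A was also called in Nr O replicate 2, and ASR1 had peaks in both Nr groups, as 2A11 did.

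Genes of small cysteine-rich or inhibitor proteins were searched for by terms in their descriptions, which found 3 called genes. A matching term does not show that a gene encodes the same kind of protein as 2A11. How many such genes the genome holds was not analysed here. A cysteine proteinase inhibitor (Solyc09g097850) had peaks at 37.49 and 36.79 in AC MG replicates 1 and 3, a non-specific lipid-transfer protein (Solyc10g075100) had a peak at 41.24 in AC MG replicate 1, and a defensin-like gene (Solyc07g007760) had 2 peaks at 2.43 and 2.27 in Nr G replicate 3. In AC MG replicates 1 and 3 the first of these was stronger than either 2A11 peak. The gene with the symbol mcpi in NCBI's table, a metallocarboxypeptidase inhibitor and so the nearest namesake of TCMP-2, had 0 listed mRNA peaks; it was chosen after the lists were seen.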

How the data were processed

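RNA of 24 tomato samples, 12 IP and 12 input, was processed by the submitters. Per the labels' protocols, RNA was fragmented, pulled down with an m1A antibody, treated with alkali to turn m1A into m6A, and made into whole-RNA libraries. Per the submitters' processing notes, cutadapt 1.9.3 and HISAT2 2.0.4 were used. Peak names begin with MACS. The caller's settings, like its control, were not given in the sources used here. Input libraries were not analysed here. Each of 36 lists was matched to an IP library through its name, which gives genotype, stage and replicate.

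The fold enrichment deposited by the authors is a ratio. The deposited score is 10 times the negative log10 of the p-value, per the file headers. FDR as deposited is 100 for every peak and was not used. Peak length as deposited, in bases, equals the deposited end minus the deposited start, which counts from 0. Depth is unknown, so no interval was computed. Printed positions are 1-based, and lncRNA peaks listed for several transcripts count once.

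Python 3.11.15, pandas 2.3.3 and numpy 2.4.6 were used, and the ranking and call rules were tested on simulated data. The gene and the lists were chosen with earlier results of these data known. Genes were named by rule: 2A11, the 8 with the highest Jaccard index (ties by description, peak number and identifier), called genes near it, 7 fruit genes whatever their calls, and called genes whose descriptions matched search terms for small cysteine-rich or inhibitor proteins. Symbols such as E4, E8 and VI were attached to identifiers by hand, with no check in a reference.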

Additional observations from a re-analysis of the deposited data

How the results depend on the processing

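Counts of libraries depend on how weak a peak may be. When peaks under their list's median fold enrichment were dropped, 2A11 was called in 3 libraries in place of 9 (AC MG replicates 1 and 3 and AC Br+6 replicate 3), which makes 1 in AC Br+6 and 0 in either Nr group. The 5′-side peak was then called in 2, the 3′-side peak in 3 and the circle, against its own lists, in 2. With all lists cut to 108 peaks by fold enrichment, 2A11 was called in 1 library, Nr O replicate 3, so that Nr O had 1 and every other group 0. The cut by score also left only Nr O replicate 3, but it is no separate check. Both peaks of AC MG replicate 1 and the 3′-side peak of AC Br+6 replicate 3 were tied at a score of 3100. That tie crossed the cut in their lists, so the order of tied peaks decided their loss. With a score of at least 50, an alternative chosen after seeing the data, the counts were 8 for 2A11, 7 for the 5′ side and 6 for the 3′ side. The alternatives that leave out the longest lists were also chosen after seeing the data, and gave 4 for the circle and a median rank of 43.1%. Overlap in place of listed identity left the counts at 9 and 6. Leaving out 1 library at a time gave 8 to 9 calls of 2A11, 5 to 6 of the circle, a mean fold enrichment of 12.5 to 16.2 and a median rank of 43.3 to 45.8%. The ranges of the call counts were fixed in advance, since a count can only stay or fall by 1 when a library is removed. Averaging the peaks of a library gave a mean of 12.7, and ranking by score a median of 41.2%. All 8 genes most like 2A11 were also the 8 with the most matching calls. For these 8 genes that follows from the definitions of both measures, so it is no separate check. No paired analysis was possible because no result comes from a test. Unknown depth limits every count, since a missing peak may be an undetected one.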
